A study of Mus musculus with 18 samples.

Results

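The mitosis and spindle genes are 47 genes whose products drive entry into mitosis, attach chromosomes to the spindle, separate them and divide the cell. They were taken from a list of gene symbols, and each was represented by the 1 of its probe sets (sets of short oligonucleotides on an Affymetrix array) with the highest mean over 18 arrays. All 47 were found among the 18193 genes named on the array, and all 47 were among the 14018 genes bright enough to be tested. Each array held RNA of thymocytes or of a tumour mass from 1 mouse, and the mice were independent per the design text. The control group held 5 mice, named LckCre in the design text (Cre driven by the Lck promoter, active in T cells) and wild type in the sample labels. The group before transformation held 5 CD4Cre-Ctnnbex3 mice whose thymocytes had not yet turned into tumours, and 8 mice of the same genotype made up the lymphoma group. Both of the latter groups carry Cre under Cd4 regulatory sequences, active in thymocytes, together with a Ctnnb1 allele whose product, beta-catenin, is stabilised once Cre has acted. Strain and age were not given in the sources used here. Whole thymocyte suspensions or whole tumour masses went into the RNA, so fewer dividing cells and less RNA per dividing cell cannot be told apart.

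Mitotic genes are switched on late in the cell cycle and their transcripts fall again after division, so in a mixed tissue their level follows the share of cells in or near mitosis. Cyclin-dependent kinase Cdk1 with its cyclins starts mitosis, and the spindle checkpoint delays anaphase until every kinetochore is attached. The anaphase-promoting complex then releases separase to cut cohesin. In the thymus most division takes place in early thymocytes and in the blast stage that precedes the small, resting double-positive cells. The promoters of many such genes share a pair of elements, a CCAAT box bound by NF-Y and a cell cycle homology region bound by the MuvB complexes that contain LIN54 and that recruit B-MYB and FOXM1.

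The RefSeq promoter table (build GRCm38.p6, 250 bases before to 50 bases after each annotated start) matched 40 of the 47 members. Smc4, Incenp, Aurkb, Tpx2, Kif20a, Foxm1 and Ccna2 had no entry. The motifs were searched by their letters on both strands: CCAAT, which reads ATTGG on the other strand, stands for the NF-Y box, TTTGAA, which reads TTCAAA on the other strand, and its variant TTCGAA stand for the cell cycle homology region, and GCGGGAA stands for E2F. CCAAT was found in 31 of 40 member promoters (77.5%) and in 39% of the 17492 protein-coding promoters in the table. TTTGAA was found in 32 of 40 (80%) against 16.5%, and CCAAT together with TTTGAA or TTCGAA in 29 of 40 (72.5%) against 7.43%. TTCGAA was rare, in 3 of 40 (7.5%) against 1.87%, and GCGGGAA was present in 1 of 40 (2.5%) against 5.99%. At least 2 copies of CCAAT lay in 21 of 40 member promoters (52.5%) against 13.5%. No motif contains another. A match is a description of these letters and not a site of binding.

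The following 8 windows show the arrangement in genes whose values are described below. Each is the 100 bases before the annotated start, read 5′ to 3′ in the gene's own orientation, with matches to the motifs in capitals.
Cdk1, chr10:69352913-69353012, minus strand: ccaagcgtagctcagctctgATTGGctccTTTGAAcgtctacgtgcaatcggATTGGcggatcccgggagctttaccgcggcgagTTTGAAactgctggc
Top2a, chr11:99024190-99024289, minus strand: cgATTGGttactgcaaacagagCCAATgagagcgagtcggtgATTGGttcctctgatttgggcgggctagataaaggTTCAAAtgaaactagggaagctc
Ube2c, chr2:164769829-164769928, plus strand: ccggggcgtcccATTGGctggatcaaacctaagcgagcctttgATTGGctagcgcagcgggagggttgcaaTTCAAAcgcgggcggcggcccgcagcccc
Cdc20, chr4:118437344-118437443, minus strand: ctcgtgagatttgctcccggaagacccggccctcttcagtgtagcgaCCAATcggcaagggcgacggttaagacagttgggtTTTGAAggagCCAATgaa
Kif11, chr19:37376282-37376381, plus strand: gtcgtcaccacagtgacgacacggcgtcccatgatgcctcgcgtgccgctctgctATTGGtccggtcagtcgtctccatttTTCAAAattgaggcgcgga
Espl1, chr15:102296193-102296292, plus strand: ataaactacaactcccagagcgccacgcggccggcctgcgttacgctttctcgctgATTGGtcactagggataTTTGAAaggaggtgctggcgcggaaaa
Kif22, chr7:127042421-127042520, minus strand: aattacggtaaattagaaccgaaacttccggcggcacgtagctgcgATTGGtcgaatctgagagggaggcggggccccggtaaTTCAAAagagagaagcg
Cdca5, chr19:6084997-6085096, plus strand: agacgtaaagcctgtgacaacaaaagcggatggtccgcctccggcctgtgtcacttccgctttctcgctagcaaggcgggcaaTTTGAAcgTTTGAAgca
Cdca5 is shown because it holds TTTGAA without CCAAT. The other windows hold both elements, and in all of these but Cdc20 the TTTGAA, on either strand, is the element nearest the start.

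TTTGAA stood mostly close to the start, while the distances between elements varied widely. Of the 32 members with TTTGAA, 29 (90.6%) had it within 50 bases of the start, against 692 of 2886 (24%) of all protein-coding promoters with it. Adjacent CCAAT boxes lay a median of 33.5 bases apart (40 distances in 21 genes, from 3 to 179, with 10 of them at 31 to 35). In Ccnb2, which encodes a B-type cyclin that partners Cdk1, the 3 boxes began 87, 54 and 21 bases before the start. The last CCAAT lay a median of 34.5 bases upstream of the TTTGAA nearest the start (28 genes, from 9 to 153, with 7 at 31 to 35). Neither CCAAT nor TTTGAA nor TTCGAA was found in the windows of Birc5, Mad2l1, Ncaph, Nuf2 and Pttg1.

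**Figure D1:**
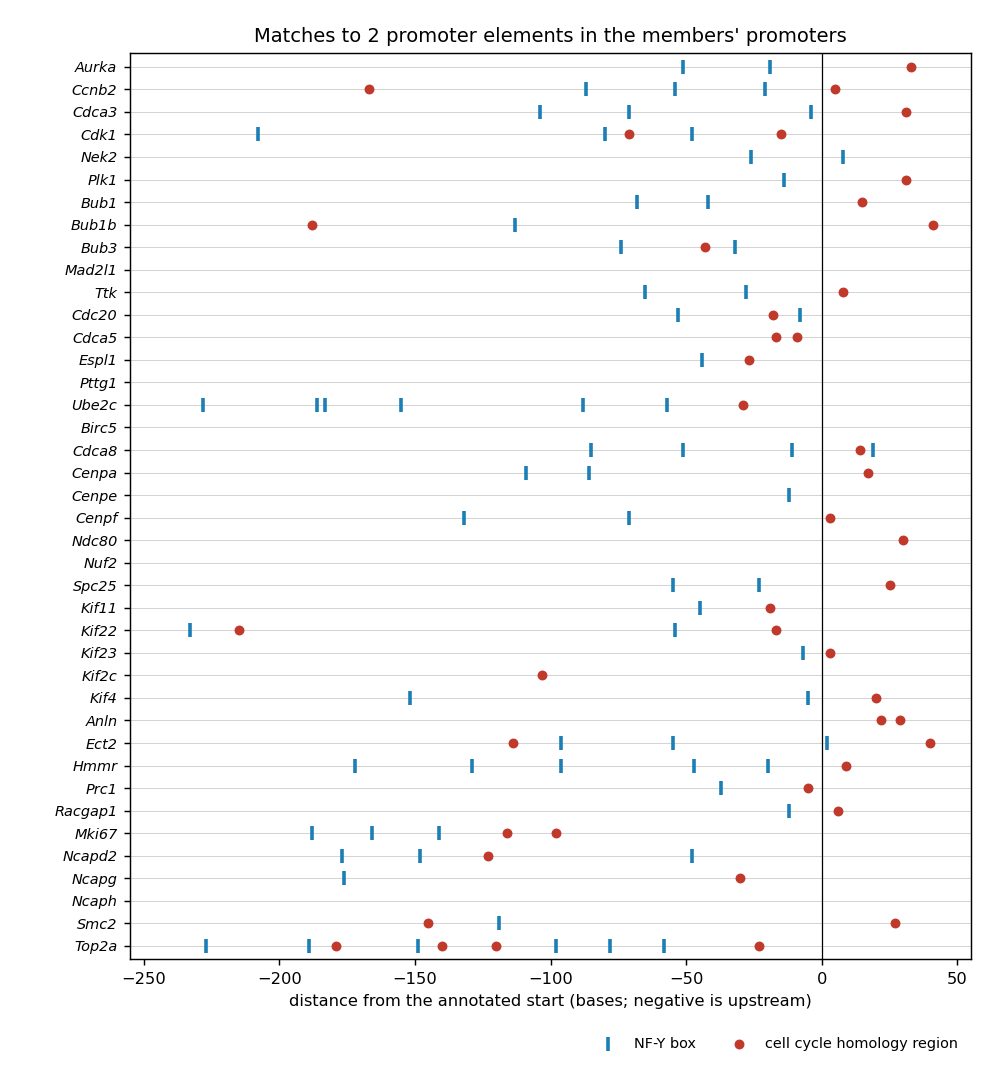
Positions of matches to the NF-Y box (blue bars) and the cell cycle homology region (red points, both spellings) in the 40 member promoters of the RefSeq table, in bases from the annotated start, 1 line per gene. Red points gather within 50 bases of the start in 29 of 32 genes with the main spelling, and blue bars stand mostly upstream of them.

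All signals below are log2 of the deposited linear signal, so a difference of 1 is a doubling, and levels of different genes cannot be compared because each probe set binds with its own strength. Genes are said to have risen or fallen where limma's adjusted p was under 0.05 with Benjamini-Hochberg adjustment over 14018 genes. No member lay at the floor of 5.74 on any array. The median signal of the arrays was 125 to 166, and after the floor the medians spanned 0.45 on the log2 scale. The 3′ minus 5′ difference was -0.27 to 0.00 for Gapdh and 0.05 to 0.26 for Actb. The correlation of each array with the mean of its group was 0.91 to 0.98. Blank values numbered from 0 (control 1) to 1175 (lymphoma 2) per array. The number of mice limits the precision. Transcripts of Xist and Eif2s3y showed controls 1 and 2 and lymphomas 1, 2, 5, 6, 7 and 8 to be female, controls 3 to 5, lymphoma 3 and all 5 mice before transformation male, and lymphoma 4 to carry both signals. Lymphoma and the group before transformation therefore differ in sex as well, and the part of sex in that comparison cannot be told apart from that of the tumour.

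The cells sampled also differed. Summed over 7 named thymocyte markers such as Cd3e, Lck and Rag1, the linear signal was 43954 to 48587 in controls, 36620 to 58155 before transformation and 15036 to 27763 in lymphomas. The 4 early thymocyte markers Il2ra, Kit, Ptcra and Notch1, which mark the stages that divide, summed to 2949 to 3529 in controls, 851 to 1078 before transformation and 244 to 643 in lymphomas. Myeloid markers (6) gave 2560 to 4251, 1325 to 4448 and 5718 to 18650 in the same order, and stromal markers (5) 787 to 1030, 917 to 1872 and 983 to 6447. B-cell markers (5 measured) gave 961 to 1264, 541 to 2413 and 551 to 4976, and granulocyte markers (5) 2741 to 9246, 695 to 1624 and 952 to 3286. Erythroid markers (4) gave 725 to 1049, 802 to 1007 and 574 to 1257, and thymic epithelial markers (5) 1166 to 1734, 1092 to 2574 and 1006 to 1408. No marker list lay at the floor throughout. The part of these differences in the results on mitotic genes was not tested.

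**Figure D2:**
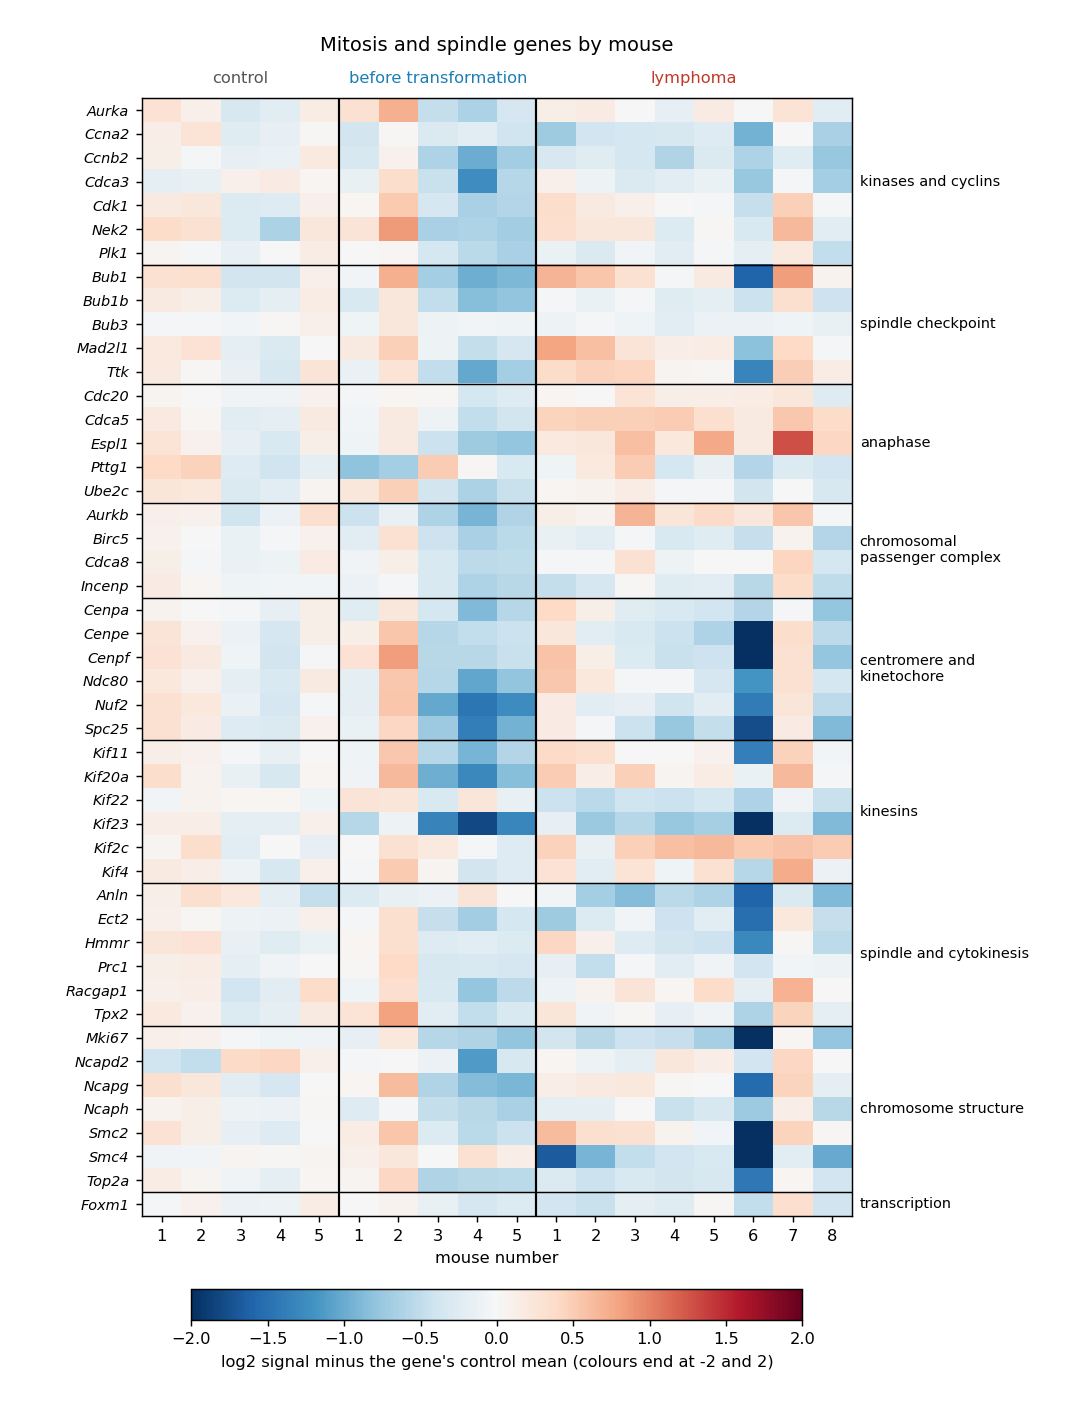
Log2 signal of each member minus its mean in controls (colour, from -2 in blue to 2 in red) in all 18 mice, with genes in rows by role and mice in columns by group. The column of lymphoma 6 is the darkest blue in the kinetochore and chromosome structure genes, mice 3 to 5 before transformation are blue in most rows, and mouse 2 before transformation is red in most rows.

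Most members moved together from mouse to mouse, and this common movement was larger than most differences between groups. The mean over the 47 members of log2 signal minus the control mean was 0.15, 0.11, -0.14, -0.18 and 0.06 in controls 1 to 5. Before transformation it was -0.07, 0.30, -0.39, -0.63 and -0.52 in mice 1 to 5. In lymphomas 1 to 8 it was 0.05, -0.07, 0.00, -0.18, -0.09, -0.88, 0.27 and -0.33. The group means were -0.26 ± 0.38 (SD, n = 5) before transformation and -0.15 ± 0.34 (SD, n = 8) in lymphomas, against 0.00 ± 0.15 (SD, n = 5) in controls, and the groups overlapped. Mouse 2 before transformation was the highest of its group for 43 of 47 members (21.4% of all genes) and mouse 4 the lowest for 30 (19% of all genes). In some markers of other cells mouse 2 was the lowest of its group. Its sums were 1325 for myeloid (3140 to 4448 in the others), 541 for B-cell (803 to 2413), 695 for granulocyte (782 to 1624) and 1092 for thymic epithelial markers (1437 to 2574). It was not the lowest for stromal markers, at 1249 (917 to 1872 in the others), or erythroid markers, at 868 (802 to 1007). The part of those cells in its higher values was not tested. Lymphoma 7 was the highest of 8 for 29 members (15.1% of all genes) and lymphoma 6 the lowest for 36 (21.3%).

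**Figure D3:**
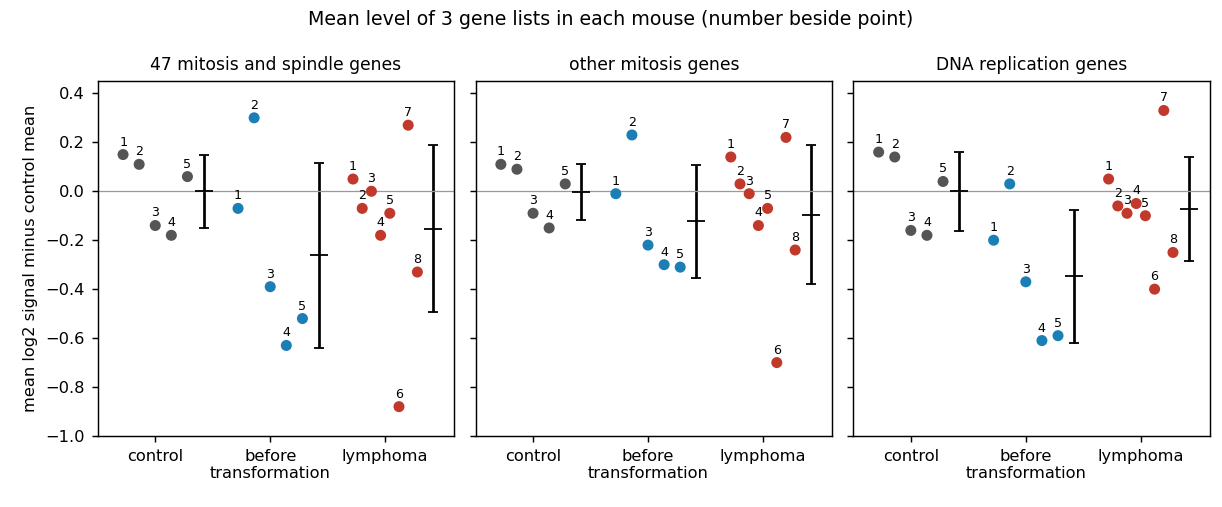
Mean log2 signal minus the control mean in each mouse, over the 47 mitosis and spindle genes, 84 other mitosis genes and 38 DNA replication genes. Points are mice with their numbers, the black bar is the group mean ± SD, and the 3 groups overlap in the left panel, with lymphoma 6 at -0.88 and mouse 2 before transformation at 0.30.

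The members also spread more widely before transformation than in controls. The median SD of a member was 0.22 among controls, 0.42 before transformation and 0.31 among lymphomas (0.26 without lymphoma 6), whereas the median over all genes tested was 0.19, 0.24 and 0.29 (0.28 without lymphoma 6). Among mice 3 to 5 before transformation alone, the mean over members had an SD of 0.12, against 0.38 in all 5 and 0.15 in controls. Over the 18 mice the deviation of a member from its group means correlated with the mean deviation of the other members at a median Pearson r of 0.84, and r was above 0.8 for 27 members. Among the 13971 other genes the median r was -0.04 and 197 lay above 0.8. These are descriptions over 18 mice that share the same arrays. Bub1, Nuf2, Ncapg and Kif23 were among the members closest to the rest, at r of 0.96 to 0.97. Pttg1 (0.03), Kif2c (0.19), Ncapd2 (0.38), Anln (0.43), Cdc20 (0.47), Bub3 (0.48) and Smc4 (0.49) followed the rest least, and without lymphoma 6 Smc4 and Anln were at 0.03 and 0.00, Pttg1 at -0.20 and Ncapd2 at 0.25, whereas Kif2c was at 0.33, Bub3 at 0.63 and Cdc20 at 0.71. Members with TTTGAA near the start had a median r of 0.84 (29 genes) and the other members with a listed promoter 0.88 (11 genes).

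The genes outside the list whose deviations were most like those of the members were Nusap1 (r = 0.97), a microtubule-bundling protein of the spindle, Cenpi (0.97), a centromere protein, Shcbp1 (0.96), which acts in cytokinesis, and the probe set 1435007_s_at annotated to Slc25a47 (0.96). Next came Stil, required to duplicate centrioles, Cep55, which acts in abscission, Arhgap11a and Slbp, which binds histone mRNA, all at 0.95. Nusap1, Cenpi, Cep55 and Arhgap11a stand on a separate list of 87 further mitosis genes used below.

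Before transformation, the mitotic genes were on balance lower than in controls, but only 1 member passed the test. The median difference was -0.25 on the log2 scale (-0.02 over all genes). Differences lay below 0 for 43 of 47 members and for 7441 of all 14018 genes. Kif23 fell and no member rose, so 1 of 47 (2.13%) was called by limma against a background of 10.7% of all genes tested (4.44% higher and 6.24% lower). An unadjusted p under 0.05 (limma) was reached by 9 of 47 members and by 2946 of all 14018 genes. Of these members Smc4 (0.16) lay above 0 and the rest below. No member had groups that did not overlap, against 10.6% of all genes. The other mitosis genes had a median of -0.15, with 1 risen (Wapl, which releases cohesin, by 0.72) and 3 fallen (differences of -0.46 for Mybl2, -0.50 for Ncapg2 and -0.47 for Cenpm) of 84 tested. DNA replication genes had a median of -0.36 with 1 risen and 6 fallen of 38.

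Kif23 encodes the motor subunit of centralspindlin, which bundles microtubules at the midzone. Its signal (probe set 1455990_at) was 10.27, 10.27, 9.97, 9.97 and 10.24 in controls and 9.58, 10.05, 8.81, 8.34 and 8.84 before transformation. Mice 3 to 5 lay more than 1 below every control, whereas mouse 2 lay within the control range. The difference was -1.02 ± 0.27 (SE), a 2.03-fold fall (adjusted p = 0.0305, limma). The call was lost without any 1 of controls 1 to 5, without mouse 3, 4 or 5 before transformation, and with each array centred on its median, and it held in 9 of 22 alternatives with adjusted p from 0.00239 to 0.195. The other bright Kif23 probe set (1453748_a_at) differed by -0.86 ± 0.29 (adjusted p = 0.0864, limma over all probe sets). Its partner in centralspindlin, Racgap1, differed by -0.27 ± 0.20 (adjusted p = 0.534, limma).

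By role, the medians were -0.39 for the 6 centromere and kinetochore genes, -0.38 for the 5 spindle checkpoint genes, -0.32 for the chromosomal passenger complex (4) and chromosome structure (7), -0.25 for kinases and cyclins (7), -0.17 for anaphase genes (5) and kinesins (6), and -0.10 for spindle and cytokinesis genes (6). Among the kinetochore genes, the Ndc80 complex members Nuf2 (-0.67), Spc25 (-0.55) and Ndc80 (-0.41), which bind spindle microtubules, had larger differences than Cenpe (-0.16) and Cenpf (-0.09), and none passed. Aurkb, the kinase of the passenger complex that corrects faulty attachments, differed by -0.54 ± 0.16 with an adjusted p of 0.0563 by limma. Ncaph, the kleisin of condensin I, differed by -0.40 ± 0.12 (adjusted p = 0.0525, limma). Over all probe sets the same Ncaph probe set had an adjusted p of 0.0495 and a second one (1423920_at) differed by -0.54 ± 0.13 (adjusted p = 0.0164, limma), so both fell in that fit. Ccnb2 differed by -0.51 ± 0.17 (adjusted p = 0.0971, limma). The 3 members with the largest adjusted p were Tpx2, an activator of Aurora A, at 0.01 ± 0.22, the chromokinesin Kif4 at -0.02 ± 0.17 and the checkpoint protein Mad2l1 at -0.05 ± 0.18 (adjusted p of 0.989, 0.979 and 0.942, limma).

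The differences varied with the mouse numbers in the sample titles. Those numbers were examined because earlier results of these same data showed mice 1 and 2 deviating together. Before transformation, mice 1 and 2 lay on average above mice 3 to 5 for 45 of 47 members, with a median difference of 0.66, and fully above them for 38 members (22.3% of all genes). Top2a, which untangles sister DNA, shows the pattern: 12.12 and 12.48 in mice 1 and 2, and 11.46, 11.51 and 11.53 in mice 3 to 5, with controls at 12.21, 12.12, 11.99, 11.89 and 12.11. Mki67, which coats mitotic chromosomes, ran the same way, at 11.63 and 12.00 against 11.21, 11.19 and 11.00, with controls between 11.70 and 11.89. In controls, mice 1 and 2 were higher for 43 members by a median of 0.22. Lymphomas 1 and 2 were higher for 31 members by a median of 0.13, and fully above the other lymphomas for 3 (21% of all genes). Controls 1 and 2 were female and controls 3 to 5 male, whereas all mice before transformation were male.

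Within mice numbered 1 and 2, the median member difference from controls was 0.02, with Pttg1 called lower and Ncapd2 called higher (limma), 4.26% of members against 7.52% of all genes. Within mice numbered 3 and up it was -0.43, and 15 members (31.9% against 9.1% of all genes) fell: Ccnb2, Plk1, Bub1b, Cdca3, Birc5, Incenp, Nuf2, Spc25, Kif11, Kif20a, Kif23, Top2a, Ncapg, Ncaph and Mki67. The difference between the sets was tested itself with limma's interaction term. It was called for 1 member, Pttg1, and 23 of 47 members had an unadjusted p under 0.05 against 15.6% of all genes. The split was taken from earlier results of these same data. P-values within and between the sets are therefore descriptive and do not test the split independently. Leaving out mouse 2 before transformation raised the number of fallen members from 1 to 14, 29.8% of members against 11.9% of all genes called. A block for number set raised it to 6, 12.8% of members against 14.2% of all genes. Among male mice alone (controls 3 to 5 and all 5 mice before transformation) the median was -0.17 and limma called 0 members and 6.65% of all genes, with 4 members at an unadjusted p under 0.05, all lower.

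Pttg1, which encodes securin, the inhibitor of separase, ran against most other members before transformation but with them in controls, in the probe set used. Its signal (1438390_s_at) was 11.09, 11.16, 10.43, 10.29 and 10.49 in controls and 9.88, 10.02, 11.20, 10.72 and 10.38 before transformation. Mice 1 and 2 were the 2 highest controls and the 2 lowest mice before transformation. The difference was -1.18 in mice 1 and 2 and 0.36 in mice 3 to 5, and the interaction of 1.54 had an adjusted p of 0.0466 (limma). A second Pttg1 probe set (1424105_a_at) differed by -0.93 ± 0.44 before transformation (adjusted p = 0.238, limma over all probe sets).

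**Figure D4:**
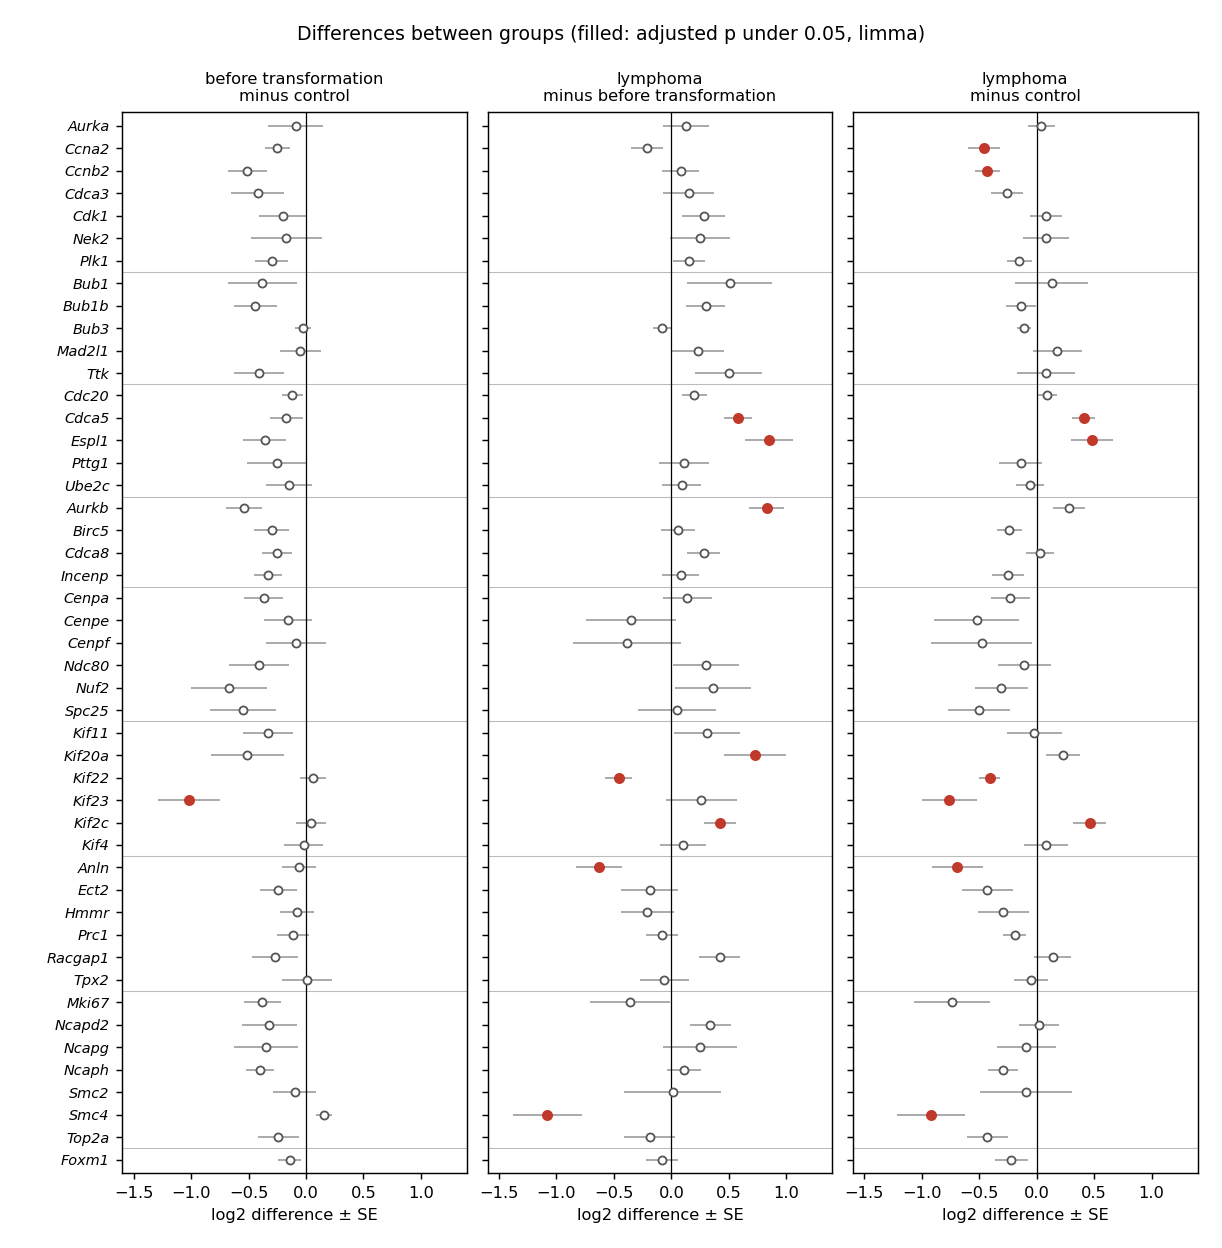
Log2 difference between groups for each member in the 3 comparisons, with its standard error from limma, genes in rows by role. Filled points have an adjusted p under 0.05: Kif23 in the left panel, 8 members in the middle panel and 9 in the right panel.

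In lymphomas against mice before transformation, 5 members rose and 3 fell, a share of 17% against 34.5% of all genes tested (16.1% higher and 18.5% lower). The risen genes were Aurkb, Espl1, Kif20a, Cdca5 and Kif2c, and the fallen genes Smc4, Anln and Kif22. The median member difference was 0.13 (-0.03 over all genes). Differences lay above 0 for 33 of 47 members and for 6638 of all 14018 genes. Over all genes 2252 rose and 2587 fell, a split that became 3183 and 2230 after quantile normalization and 2689 and 1921 with each array centred on its median. Groups did not overlap for Aurkb, Espl1, Cdca5 and Smc4, 4 of 47 members against 15.6% of all genes. Of the other mitosis genes 12 rose and 10 fell of 84, led by a fall of Mad1l1 (difference -1.92), which recruits Mad2 to kinetochores, and rises of Cenph (1.37) and Cenpw (1.24), parts of the inner kinetochore, and of the phosphatase Cdc25b (1.15), which activates Cdk1. Of 38 DNA replication genes 13 rose and 3 fell.

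The anaphase genes held 2 of the 5 rises. Espl1, which encodes separase, had signals of 9.06, 9.33, 8.72, 8.44 and 8.38 before transformation and of 9.33 to 10.44 in lymphomas, with a median of 9.47. Every lymphoma lay above every mouse before transformation, with mouse 2 only just below lymphoma 6, lymphoma 7 was the highest, and the rise was 0.85 ± 0.21 (1.8-fold, adjusted p = 0.00602, limma). Cdca5, also called sororin, protects cohesin until anaphase. Its signals were 9.66, 9.90, 9.61, 9.23 and 9.35 before transformation and 9.90 to 10.26 in lymphomas, with a median of 10.18, a rise of 0.58 ± 0.12 (1.5-fold, adjusted p = 0.00166, limma). The 8 lymphomas lay close together for Cdca5, with an SD of 0.12, and the lowest of them was only just above mouse 2. Cdc20, which activates the anaphase-promoting complex, differed by 0.20 ± 0.11, Ube2c, its ubiquitin-conjugating enzyme, by 0.09 ± 0.17 and Pttg1 by 0.11 ± 0.22, and none of these passed in the probe sets used. Other probe sets of Cdc20 rose, 1416664_at by 0.40 ± 0.14 (adjusted p = 0.0431) and 1439394_x_at by 0.83 ± 0.20 (adjusted p = 0.00455, limma over all probe sets). Of the other Pttg1 probe sets, 1424105_a_at rose by 1.37 ± 0.26 (adjusted p = 0.000884) and 1419620_at differed by 0.14 ± 0.20 (adjusted p = 0.625, limma over all probe sets), close to the one used.

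Of the chromosomal passenger complex, Aurkb rose and its partners did not pass. Aurkb signals were 8.93, 9.21, 8.73, 8.42 and 8.75 before transformation and 9.33 to 10.03 in lymphomas, with a median of 9.59. The lowest lymphoma lay above the highest mouse before transformation, and the rise was 0.83 ± 0.15 (1.77-fold, adjusted p = 0.00075, limma). Cdca8 (borealin) differed by 0.28 ± 0.14, Incenp, the scaffold, by 0.08 ± 0.16 and Birc5 (survivin) by 0.06 ± 0.15. Both probe sets of Aurkb rose. Against controls, whose Aurkb signal was 9.46, 9.44, 8.96, 9.23 and 9.67, the lymphomas differed by 0.28 ± 0.14 (adjusted p = 0.126, limma), while the second Aurkb probe set (1451246_s_at) was higher by 0.43 ± 0.15 (adjusted p = 0.0321, limma over all probe sets).

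Kinesins, the motors of the spindle, went both ways. Kif20a, which moves the passenger complex to the midzone, had signals of 8.23, 8.94, 7.32, 7.01 and 7.44 before transformation and of 8.16 to 8.94 in lymphomas, with a median of 8.44. Mouse 2 before transformation lay as high as the highest lymphoma, and the rise of 0.73 ± 0.27 (adjusted p = 0.0468, limma) was lost without any 1 of lymphomas 1 to 5, 7 or 8 and without mouse 3, 4 or 5 before transformation. Kif2c, a microtubule depolymerase at centromeres, rose by 0.42 ± 0.14 (adjusted p = 0.0307, limma), from 9.11, 9.41, 9.30, 9.08 and 8.86 to 8.96 to 9.76, and all lymphomas but lymphoma 2 lay above all mice before transformation. That call was lost without mouse 1, 4 or 5 before transformation and without lymphoma 4, 5 or 8. None of the other Kif2c probe sets passed, with differences of 0.13 (1432392_at), 0.45 (1437611_x_at) and 0.51 (1449060_at) and adjusted p of 0.554, 0.0901 and 0.101 (limma over all probe sets). Kif22, a chromokinesin, fell by 0.46 ± 0.12 (adjusted p = 0.00785, limma), from 11.46, 11.44, 10.90, 11.44 and 11.05 to 10.58 to 11.13. The fall of Kif22 holds for the probe set used (1437716_x_at) and not for its others, which differed by 0.32 ± 0.20 (1451128_s_at, adjusted p = 0.232) and -0.01 ± 0.15 (1423813_at, adjusted p = 0.97, limma over all probe sets). Kif11, the bipolar spindle motor (0.31 ± 0.29), Kif23 (0.26 ± 0.31) and Kif4 (0.10 ± 0.20) did not pass, although the other bright Kif23 probe set rose by 0.81 ± 0.30 (adjusted p = 0.0488, limma over all probe sets).

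Smc4, the condensin ATPase, had the largest fall among the members. Its signals were 12.13, 12.25, 12.03, 12.34 and 12.17 before transformation and 10.36, 11.10, 11.54, 11.64, 11.73, 9.66, 11.81 and 11.03 in lymphomas 1 to 8. Every lymphoma lay below every mouse of both other groups, with lymphomas 6 and 1 the lowest. The fall was 1.08 ± 0.30 on the log2 scale, 2.11-fold (adjusted p = 0.0135, limma), and without lymphoma 6 the call held. All 3 Smc4 probe sets fell, with differences of -1.08, -0.99 and -1.04. Its partner Smc2 differed by 0.01 ± 0.42, with 7 lymphomas at 10.21 to 10.90 and lymphoma 6 at 7.74, and the other condensin I subunits Ncapd2 (0.34 ± 0.18), Ncapg (0.25 ± 0.32) and Ncaph (0.11 ± 0.15) did not pass. Top2a differed by -0.19 ± 0.22 and Mki67 by -0.36 ± 0.35.

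Among the spindle and cytokinesis genes, Anln, which encodes the contractile-ring protein anillin, fell by 0.63 ± 0.20 (1.55-fold, adjusted p = 0.0259, limma). Its signals were 9.63, 9.76, 9.78, 10.16 and 9.90 before transformation and 8.30 to 9.84 in lymphomas, with a median of 9.26, and lymphoma 1 lay within the range before transformation. The call was lost without mouse 4 or 5 before transformation. Racgap1 (0.42 ± 0.18, adjusted p = 0.0929, limma), the microtubule bundler Prc1 (-0.08 ± 0.14), Tpx2 (-0.06 ± 0.21), the cytokinesis factor Ect2 (-0.19 ± 0.25) and Hmmr, a spindle-assembly protein (-0.21 ± 0.23), did not pass. None of the kinases and cyclins, spindle checkpoint or centromere genes passed. By limma 0 of these 18 were called and 0 had an unadjusted p under 0.05 (6251 of 14018 over all genes). Bub1 (0.51 ± 0.37) and Ttk (0.50 ± 0.29), kinases of the checkpoint, had the largest differences of these, and both passed without lymphoma 6. The 3 members with the largest adjusted p were Smc2, Spc25 (0.05 ± 0.34) and Tpx2 (0.988, 0.924 and 0.849, limma).

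These differences also varied with the mouse numbers. In mice numbered 1 and 2 the median member difference was -0.13, with 1 member higher (Pttg1) and 2 lower (Kif22 and Smc4), 6.38% of members against 18.4% of all genes. In mice numbered 3 and up it was 0.32, with 13 higher (Cdk1, Aurka, Aurkb, Bub1b, Cdca5, Cdca8, Nuf2, Kif2c, Kif20a, Nek2, Ube2c, Espl1 and Racgap1) and Anln lower, 29.8% of members against 41.8% of all genes. The interaction was called for none of the members by limma and for 621 of all genes, with 11 of 47 members at an unadjusted p under 0.05 against 19.6% of all genes. Without mouse 2 before transformation 8 members rose and 3 fell, 23.4% of members against 34.6% of all genes. Without mouse 4 or 5 before transformation 3 rose (10.6% of members called, against 27% and 27.4% of all genes). Without lymphoma 4, 5 or 8 also 3 rose (12.8% of members called, against 31.4%, 31.3% and 31.2% of all genes). Aurkb, Cdca5 and Espl1 were called in 23 of 24 alternatives each, all but the fit on mice numbered 1 and 2.

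Against controls, 3 members were higher in lymphomas and 6 lower, a share of 19.1% against 40.2% of all genes tested (17.4% higher and 22.7% lower). Groups did not overlap for Cdca5, Ccnb2 and Smc4, 3 of 47 members against 20.3% of all genes. This comparison shares its lymphomas with the previous one and its controls with the first. The higher genes were Cdca5, Kif2c and Espl1. The lower genes were Kif22, Ccnb2, Kif23, Ccna2, Anln and Smc4. The median member difference was -0.14 (-0.03 over all genes). Quantile normalization moved the median over all genes to 0.08 and that of the members to -0.01. Both medians moved up, and that of the members stayed below that of all genes. The split of all genes was 2444 higher and 3188 lower, and became 3596 and 2565 after quantile normalization and 3049 and 2378 with each array centred on its median. Of 84 other mitosis genes 7 rose and 13 fell, Mad1l1 again the most (-1.74), with Cenpw (1.01), Cdc25b (0.94) and Cenph (0.91) among the rises, and Stag2 (-1.05), Fbxo5 (-0.93) and Ncaph2 (-0.84) among the falls. Stag2 is a cohesin subunit, Fbxo5 (Emi1) inhibits the anaphase-promoting complex, and Ncaph2 belongs to condensin II. Of 38 DNA replication genes 3 rose and 7 fell.

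Among the kinases and cyclins, Ccna2 and Ccnb2 fell. Ccna2 (cyclin A2) had signals of 11.48, 11.62, 11.11, 11.19 and 11.37 in controls and of 10.41 to 11.34 in lymphomas, with a median of 10.98, a fall of 0.46 ± 0.14 (adjusted p = 0.019, limma) that was lost without control 2. Ccnb2 had signals of 10.79, 10.66, 10.52, 10.55 and 10.88 in controls and of 9.92 to 10.44 in lymphomas, with a median of 10.34. All 8 lymphomas lay below all 5 controls, and the fall was 0.43 ± 0.11 (1.34-fold, adjusted p = 0.0063, limma). Both cyclin calls were lost with each array centred on its median, and that of Ccna2 also with quantile normalization. Cdk1 itself differed by 0.08 ± 0.14 (adjusted p = 0.701, limma), at 11.22, 11.27, 10.77, 10.78 and 11.14 in controls and 10.57 to 11.51 in lymphomas. Plk1 (-0.15 ± 0.11), Aurka (0.04 ± 0.12), the centrosome kinase Nek2 (0.08 ± 0.20) and Cdca3 (-0.26 ± 0.14) did not pass.

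Cdca5 was higher by 0.41 ± 0.10 (1.33-fold, adjusted p = 0.00419, limma), with controls at 9.90, 9.76, 9.49, 9.53 and 9.90 and every lymphoma above them, the lowest only just above controls 1 and 5. In the probe sets used, Cdca5 was the 1 member whose lymphoma values all exceeded those of both other groups. Its other probe set (1448466_at) did not pass against controls, at 0.31 ± 0.13 (adjusted p = 0.0604, limma over all probe sets). Against mice before transformation that probe set rose by 0.69 ± 0.14 (adjusted p = 0.00192, limma over all probe sets). Kif2c was higher by 0.46 ± 0.14 (adjusted p = 0.0169, limma), from 9.16, 9.47, 8.88, 9.10 and 8.95 in controls. That difference was -0.05 in mice numbered 1 and 2 and 0.69 in mice numbered 3 and up, and its call was lost without control 3. Espl1 was higher by 0.48 ± 0.18 (adjusted p = 0.0442, limma), a call held in 13 of 25 alternatives and lost without control 2, 3, 4 or 5 or lymphoma 3, 5 or 8.

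Kif23 was lower by 0.76 ± 0.24 (1.7-fold, adjusted p = 0.0188, limma), with lymphomas at 8.11 to 9.98 around a median of 9.44, and 7 of 8 lay below all controls. The call was lost with the mean of all Kif23 probe sets, and the other bright one (1453748_a_at) differed by -0.05 ± 0.31 (adjusted p = 0.909, limma over all probe sets). Kif22 was lower by 0.41 ± 0.09 (adjusted p = 0.00207, limma) in the probe set used, while its other probe sets differed by -0.26 and -0.06 and did not pass. The Kif22 call was lost with quantile normalization. Smc4 was lower by 0.92 ± 0.30 (adjusted p = 0.0243, limma) with no overlap, and Anln by 0.69 ± 0.22 (adjusted p = 0.0193, limma). The Smc4 call was lost without control 3, and the Anln call without control 2 or 3. Leaving out lymphoma 7 raised the number of fallen members from 6 to 11, which added Birc5, Incenp, Top2a, Ncaph and Foxm1. In that fit 29.8% of members and 39.7% of all genes were called. Without lymphoma 6, 8 members fell, with Top2a and Mki67 added (23.4% of members called against 39.4% of all genes). All 6 centromere and kinetochore genes lay below 0 with a median of -0.39 and none passed, with Cenpe at -0.52 ± 0.37, Cenpf at -0.48 ± 0.44 and the centromeric histone Cenpa at -0.23 ± 0.17. Spindle checkpoint genes had a median of 0.08, with Mad2l1 at 0.18 ± 0.21, Bub1b at -0.14 ± 0.13 and Bub3 at -0.11 ± 0.06. The transcription factor Foxm1, which activates mitotic genes, differed by -0.22 ± 0.14 (adjusted p = 0.211, limma). The 3 members with the largest adjusted p were Kif11 (-0.02 ± 0.24), Ncapd2 (0.02 ± 0.17) and Smc2 (-0.09 ± 0.40), at 0.959, 0.945 and 0.875 (limma). Within mice numbered 1 and 2 the member median was -0.12 and within mice numbered 3 and up -0.13. Among female mice alone (controls 1 and 2 and lymphomas 1, 2, 5, 6, 7 and 8) limma called 0 members and 14% of all genes. In that fit 1 member was higher and 5 lower at an unadjusted p under 0.05, and the few controls limit what it can call.

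One tumour stood apart in the same genes. In lymphoma 6, 18 of 47 members (38.3%) lay at least 1 below the mean of the other 7 lymphomas on the log2 scale, against 6.96% of all genes tested, and 36 members were below all others (76.6% against 21.3%). No other lymphoma had a member 1 or more below the mean of the rest. Cenpf, a large kinetochore protein, was at 6.79 in lymphoma 6 against 9.61 ± 0.48 (SD, n = 7) in the others, a 7.05-fold difference. Smc2 was at 7.74 against 10.51 ± 0.25, Cenpe, the kinetochore motor, at 6.58 against 8.98 ± 0.37, Mki67 at 9.09 against 11.33 ± 0.26, and Bub1 at 7.37 against 9.33 ± 0.33. The differences were -2.77 for Smc2, -2.41 for Cenpe, -2.24 for Mki67 and -1.97 for Bub1.

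The low values of lymphoma 6 were uneven across roles. The median difference from the other lymphomas was -1.65 for chromosome structure, -1.34 for centromere and kinetochore and -1.15 for checkpoint genes, but -0.44 for kinases and cyclins, -0.34 for anaphase genes and -0.16 for the passenger complex. Cdc20 (0.07), Kif2c (0.09), Bub3 (0.00), Plk1 (-0.04), Aurka (-0.05), Cdca8 (-0.05) and Aurkb (-0.06) were close to the mean of the other tumours. The condensin subunits differed within 1 complex, at -2.77 for Smc2, -1.65 for Smc4 and Ncapg, -0.49 for Ncaph and -0.46 for Ncapd2. Of 84 other mitosis genes 24 (28.6%) were at least 1 lower, and of 38 DNA replication genes 3 (7.89%). Below all other lymphomas lay 49 of the other mitosis genes (58.3%) and 18 of the DNA replication genes (47.4%), against 21.3% of all genes. Their median differences were -0.45 and -0.25 (-0.03 over all genes). Another Cenpf probe set (1452334_at) read 8.54 in lymphoma 6, above its lymphoma mean of 8.43, whereas 1458447_at was at the floor. The array of lymphoma 6 had a median of 141, a 3′ minus 5′ difference of -0.17 for Gapdh and 0.13 for Actb, both within the range of the other arrays, and the lowest correlation with its group (0.91, with lymphoma 1 next at 0.92). Its thymocyte markers summed to 19456, its myeloid markers to 6611 and its stromal markers to 1526, each within the range of the other lymphomas. Its erythroid markers summed to 1257, the highest of all 18 mice, against 574 to 675 in the other 7 lymphomas. The part of array or tissue in these values was not tested.

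**Figure D5:**
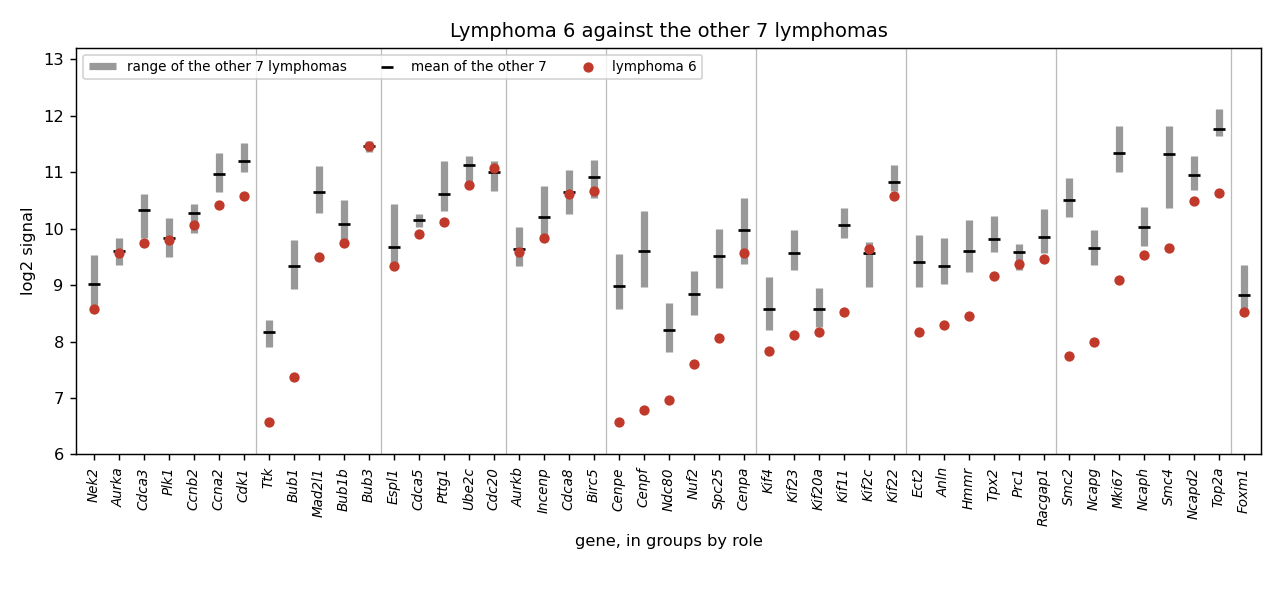
Log2 signal of each member in lymphoma 6 (red) against the range (grey bar) and mean (black tick) of the other 7 lymphomas, with genes grouped by role in the order used throughout. Red points fall far below the bars for Ttk, Bub1, Cenpe, Cenpf, Smc2, Ncapg and Mki67, and lie inside them for Plk1, Aurka, Aurkb, Cdca8, Bub3, Cdc20 and Kif2c.

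Lymphoma 7 was the opposite case, with a median member difference of 0.48 from the other 7 tumours and no member 1 or more above them. Lymphoma 8, whose myeloid (18650) and stromal (6447) sums were the highest of all mice, had a median difference of -0.23. Its score of -0.33 was the second lowest of the tumours. The part of those other cells in the lower values was not tested.

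Probe sets are a further limit on single genes. The members have 114 probe sets, and 34 have several. The probe sets used for Kif22, Aurkb, Cdc20, Incenp and Ncaph carry the suffix _x_at and those for Bub3, Cdca8, Nek2 and Pttg1 the suffix _s_at, which mark probes that can match other transcripts. When each of 103 bright member probe sets was tested on its own, 0 were higher (1 at an unadjusted p under 0.05) and 4 lower before transformation against control (limma), where 11.5% of all 24364 probe sets tested were called. In lymphomas 14 were higher and 6 lower against mice before transformation (36.2% of all probe sets called), and 6 higher and 14 lower against controls (40.9%). Besides those given above, probe sets that passed in a gene whose probe set in use did not were 1447362_at of Bub1b (-1.34 before transformation and 1.05 in lymphomas against mice before transformation), and in lymphomas against mice before transformation 1459104_at of Bub3 (-0.69), 1423920_at of Ncaph (0.42) and 1421546_a_at of Racgap1 (0.72). Against controls they were 1459104_at of Bub3 (-0.64), 1439394_x_at of Cdc20 (0.51), 1444416_at of Cenpa (-1.01), 1439252_at of Incenp (-1.09), 1423775_s_at of Prc1 (-0.70) and 1442454_at of Top2a (-0.86).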

How the data were processed

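According to the series design text, the authors used dChip to produce the deposited intensities, 1 linear value per probe set, while the labels state neither the version nor the scaling. Blanks and values under the 20th percentile of the rest (53.5) were replaced by it before taking log2. Each gene was represented by the probe set with 1 gene symbol in the platform annotation and the highest mean. Genes above the 40th percentile (109) on at least 5 arrays were tested. The fits, 1 per pair of groups, used limma 3.58.1 (R 4.3.3) with an intensity trend, and p-values were adjusted over all genes tested. The code was tested on simulated data. Alternatives covered floor, scaling, filter, trend, a fit of all groups, mean of probe sets, blocks, sex, number sets and each mouse left out.

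The members, the gene lists and the split by mouse number were chosen with earlier results of these data known. The rule for named genes took, per comparison, the 5 called members with the smallest adjusted p in each direction, the 3 with the largest and 1 or 2 per role. Genes of other lists, members named for lymphoma 6 and those called in a number set were named after their values were seen. Whether control mice carried LckCre or were wild type was not settled. Replicates are separate mice, and p-values measure the spread between mice.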

Additional observations from a re-analysis of the deposited data

Results flagged for a closer look

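In 141 groups of 5 or 8 mice (each member in each group), the highest or lowest mouse lay apart from the others by Dixon's test in 14, where chance gives about 1 in 20 groups, or 7.05. Members move together, so these are not independent, and 11 of the 14 concern lymphoma 6. Its signal was the lowest of 8, on the log2 scale, for Bub1 (7.37), Ttk (6.57), Cenpe (6.58), Cenpf (6.79), Nuf2 (7.60), Kif11 (8.53), Kif23 (8.11), Top2a (10.63), Ncapg (8.00), Smc2 (7.74) and Mki67 (9.09). Kif2c was lowest in lymphoma 2 (8.96), by 0.61 below the next tumour. Bub3 was highest in mouse 2 before transformation (11.79), and Ncapd2 lowest in mouse 4 before transformation (9.74). The difference of Pttg1 between mice before transformation and controls was larger by 1.54 in mice numbered 3 and up than in mice numbered 1 and 2 (adjusted p = 0.0466, limma's interaction), with opposite signs in the sets. These number sets were chosen with earlier results of the same data known, so that p-value is descriptive.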

How the results depend on the processing

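For the members called in a comparison, 349 of 439 alternatives kept the direction and the call, 89 lost the call and 1 reversed, which was Kif2c against controls in mice numbered 1 and 2 (-0.05). Of 20 fits of their other probe sets, chosen after seeing the data as was leaving out lymphoma 6 in the covariation, 8 kept the call, 11 lost it and 1 reversed (Kif22, 0.32). The 3 members with the largest adjusted p in each comparison had no settled direction, with the opposite sign in 62 of 213 alternatives, and 1 gained a call. The median over members had the opposite sign in 2 of 71, both in mice numbered 1 and 2, at 0.02 before transformation and -0.13 in lymphomas against mice before transformation. The 1 member fallen before transformation became 2 with quantile normalization, 0 with centred arrays, without the filter, with all groups in one fit or in male mice alone, 4 with the mean of probe sets, 6 with a number-set block and 15 in mice numbered 3 and up, and the 0 risen became 1 in mice numbered 1 and 2. The 5 risen in lymphomas against mice before transformation became 8 with quantile normalization, 1 in mice numbered 1 and 2 and 13 in mice numbered 3 and up, and the 3 fallen became 1 with centred arrays and 1 in mice numbered 3 and up. Against controls, the 6 fallen became 4 with quantile normalization or centred arrays and 3 in mice numbered 3 and up. The 3 risen became 4 with quantile normalization. In female mice alone, with controls 1 and 2 only, both the 6 fallen and the 3 risen became 0. Leaving out each mouse gave 0 to 0 risen and 0 to 14 fallen before transformation, 3 to 8 and 2 to 3 in lymphomas against mice before transformation, and 1 to 3 and 4 to 11 against controls. Over all alternatives the share of all genes called also varied, from 5.95% to 14.2% before transformation. It ran from 18.4% to 46% in lymphomas against mice before transformation and from 14% to 45.6% against controls. Between groups, mice with the same number correlated in their deviations at -0.143 to 0.405 and mice with different numbers at -0.379 to 0.391. These ranges overlap, and whether the numbers pair the mice was not settled. A replicate block by mouse number gave 0 risen and 3 fallen before transformation, 7 and 3 in lymphomas against mice before transformation and 2 and 8 against controls. Signals near the floor of 5.74, such as Ttk and Cenpe in lymphoma 6, understate a fall.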
